A study of Mus musculus with 12 samples.

Results

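Proliferation and DNA replication genes were followed across 4 sorted populations of mouse bone. The set was a list of 48 genes, taken by symbol from the 49585 genes that the deposited tables count, and all 48 were matched to an Ensembl identifier. Of these, 31 act in mitosis and cytokinesis and 17 in DNA replication and the entry into S phase. Every library held 2000 cells from wild-type male C57BL/6 mice aged 8 to 10 weeks at steady state, sorted as CD45-Ter119-CD31- cells, and each population had 3 libraries. Itga8+ mesenchymal stem cells (Itga8+ MSCs) were the Itga8+ and Itga8-Alcam+ bone-lining cells (Itga8- BLCs, labelled as osteoblasts) the Itga8- fraction of Alcam+Sca-1- cells, and Sca-1+ MSCs were Alcam-Sca-1+ cells. These 3 populations came from bone fragments that were digested with collagenase after the marrow had been flushed out. CD51+CD140a+ MSCs came from the flushed marrow of femora and tibiae, digested with Accumax, so that the way of isolation and the population cannot be told apart in the comparisons with them. No label says whether the libraries of a population came from separate animals, and the tests measure the spread between these libraries.

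A dividing cell passes through S phase, in which its DNA is copied, and through mitosis, in which the copies are parted. Replication begins when the MCM helicase, loaded with the help of CDC6, is activated together with CDC45 and the GINS complex, and the sliding clamp PCNA then holds the polymerases on the template. Cyclin B with CDK1 drives entry into mitosis, the Aurora and Polo-like kinases build and check the spindle, and CDC20 and UBE2C direct the anaphase-promoting complex (APC/C) to destroy the cyclins. Transcripts of replication genes rise towards S phase under E2F factors, and those of mitotic genes rise later, in G2 and M. Adult stromal cells of the bone marrow are known as slowly cycling at steady state, whereas myeloid and erythroid precursors of the marrow divide often.

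Expression was measured as counts of reads per gene and is given as CPM, counts scaled to the TMM-adjusted size of each library. The totals ranged from 17580677 to 31332475 counts per library, at which 3 counts are worth 0.0820 to 0.180 CPM, and the lowest count of any member in any library was 26. The genes used for sorting followed the labels in part. Itga8 was at 35.2 to 199 CPM in Itga8+ MSCs and at 0.398 to 4.17 CPM in Itga8- BLCs, but also at 53.1 to 82.9 CPM in CD51+CD140a+ MSCs. Ly6a, which encodes Sca-1, was at 611 to 659 CPM in Sca-1+ MSCs and at 0.602 to 35.7 CPM elsewhere, and Alcam stayed at or below 5.82 CPM in every library. The osteoblast factor Sp7 was highest in Itga8- BLCs (111 to 204 CPM), and the stromal chemokine Cxcl12 in CD51+CD140a+ MSCs (34990 to 50660 CPM). Ptprc, which encodes CD45, was at 3.54 to 31.6 CPM although CD45+ cells had been gated out. Itga8+ MSC replicate 2 and Itga8- BLC replicate 3 were low in long transcripts relative to the other libraries of their population, while Itga8+ MSC replicate 3 and Itga8- BLC replicate 2 deviated the opposite way. Calls lost without 1 library are given beside the members whose fold changes are printed and as counts for the others.

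The members were highest in Itga8+ MSCs. Summed over the 48 genes, their level was 3877, 3237 and 2974 CPM in Itga8+ MSCs, 2365, 2084 and 1343 CPM in Itga8- BLCs, 1241, 1142 and 1187 CPM in Sca-1+ MSCs and 2237, 1575 and 1672 CPM in CD51+CD140a+ MSCs. The lowest library of Itga8+ MSCs thus lay above every library of the other populations, and the Sca-1+ MSCs lay below every other library. In TPM, Itga8+ MSC replicate 2 (2253) fell within the range of CD51+CD140a+ MSCs (1463 to 2273), and Itga8- BLC replicate 3 (837.5) below the Sca-1+ MSCs. The mean level was highest in Itga8+ MSCs for 30 of the 31 mitotic and 15 of the 17 replication members. It was lowest in Sca-1+ MSCs for 27 mitotic and 13 replication members. In bulk libraries, more cycling cells and more of these transcripts per cell cannot be told apart.

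**Figure D1:**
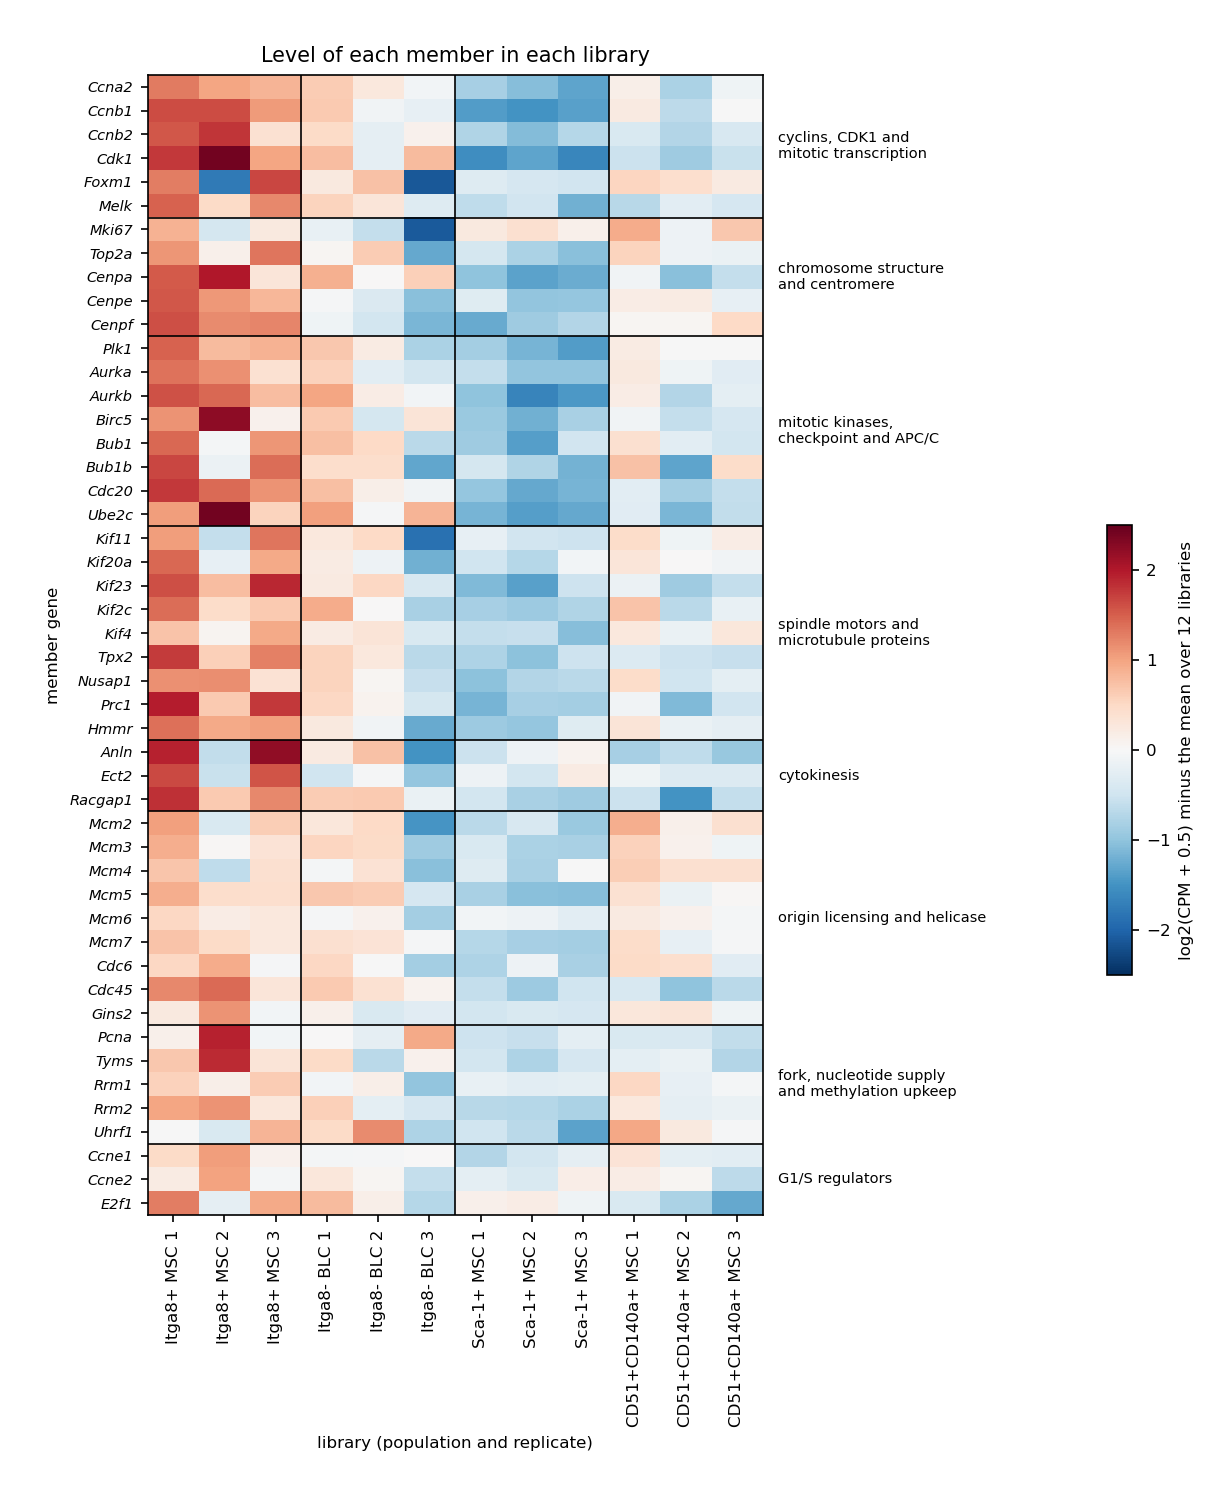
Level of each of the 48 members (rows, grouped by role) in each of the 12 libraries (columns), as log2(CPM + 0.5) minus the mean of that gene over all libraries; red is above and blue below that mean. The 3 Itga8+ MSC columns are mostly red and the 3 Sca-1+ MSC columns mostly blue, with Mki67 as the clearest exception.

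The balance of mitotic to replication transcripts differed as well. On the per-length scale (TPM, over the union of a gene's exons), the mitotic members made up 56.5%, 52.3% and 53.4% of the summed level of all members in Itga8+ MSCs, and 47.2%, 40.8% and 44.6% in Itga8- BLCs. The shares were 37.1%, 35.4% and 36.4% in Sca-1+ MSCs and 37.6%, 34.1% and 39.8% in CD51+CD140a+ MSCs. The Itga8+ MSCs did not overlap with any other population in this share, while the ranges of Sca-1+ and CD51+CD140a+ MSCs overlapped. CD51+CD140a+ MSCs combined replication transcripts at 921 to 1417 TPM in sum with mitotic transcripts at 498 to 856 TPM, against 1074 to 1609 and 1179 to 2091 TPM in Itga8+ MSCs.

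The start regions of the members showed which of them share regulatory letters. RefSeq promoter windows (GRCm38.p6, 300 bases, 250 before to 50 after the gene's start) were held for 40 of the 48 members. They were searched on both strands for the cell cycle genes homology region (CHR) at which the MuvB complexes act, spelled TTTGAA in its common form and TTCGAA in its rarer one, and for the CCAAT box of NF-Y. E2F sites were searched as TTTCGCG, as its near form TTTGGCG, and as the GC-rich form TTCCCGC. The CHR letters were in 21 of 26 mitotic windows (80.8%) and in 3 of 14 replication windows (21.4%), beside 21.7% of the windows of all 27025 genes. The CCAAT box was in 80.8% of the mitotic and 71.4% of the replication windows, beside 41.1% of all. The E2F letters were in 2 mitotic windows (7.69%) and 7 replication windows (50%), beside 7.64% of all. A match is a string of letters and says nothing about binding.

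The 5 stretches printed here are the bases before the start of genes that the results turn on, read 5′ to 3′ on the gene's strand, in GRCm38.p6. They belong to Ccnb2, the cyclin B2 gene with the highest mitotic level per length (chr9:70421555-70421804, minus strand), Cdc20 (chr4:118437353-118437593, minus strand), Cdk1, the member with the largest fold change (chr10:69352939-69353162, minus strand), Mki67, the mitotic member that departed from the rest (chr7:135716380-135716629, minus strand), and Mcm5 as a replication gene (chr8:75109259-75109508, plus strand). Capitals mark CHR, CCAAT and E2F letters on either strand; the 12 capitals that run together in Mcm5 are 2 overlapping E2F matches.
Ccnb2: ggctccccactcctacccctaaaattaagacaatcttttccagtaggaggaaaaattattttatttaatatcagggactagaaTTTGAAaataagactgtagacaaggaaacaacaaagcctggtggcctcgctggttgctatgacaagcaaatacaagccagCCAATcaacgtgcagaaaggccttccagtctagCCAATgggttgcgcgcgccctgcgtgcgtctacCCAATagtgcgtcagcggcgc
Cdc20: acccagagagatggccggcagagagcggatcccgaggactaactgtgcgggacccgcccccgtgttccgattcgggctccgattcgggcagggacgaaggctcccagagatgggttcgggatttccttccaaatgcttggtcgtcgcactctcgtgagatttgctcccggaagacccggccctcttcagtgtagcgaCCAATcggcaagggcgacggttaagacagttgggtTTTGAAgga
Cdk1: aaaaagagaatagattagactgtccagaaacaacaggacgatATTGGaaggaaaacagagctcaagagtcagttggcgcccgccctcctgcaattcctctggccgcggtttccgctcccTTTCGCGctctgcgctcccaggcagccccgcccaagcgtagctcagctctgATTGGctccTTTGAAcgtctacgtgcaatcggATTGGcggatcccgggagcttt
Mki67: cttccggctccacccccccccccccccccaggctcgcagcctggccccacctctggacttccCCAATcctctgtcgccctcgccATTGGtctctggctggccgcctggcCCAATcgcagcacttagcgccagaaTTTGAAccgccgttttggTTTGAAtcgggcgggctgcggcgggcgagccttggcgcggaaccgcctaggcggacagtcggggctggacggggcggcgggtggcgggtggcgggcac
Mcm5: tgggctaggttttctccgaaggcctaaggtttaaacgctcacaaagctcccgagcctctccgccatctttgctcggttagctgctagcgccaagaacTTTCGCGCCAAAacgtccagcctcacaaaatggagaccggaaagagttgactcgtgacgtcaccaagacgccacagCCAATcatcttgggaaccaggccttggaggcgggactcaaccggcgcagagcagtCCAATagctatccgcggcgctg
Mki67 carried 2 CHR and 3 CCAAT matches in this stretch, as many as or more than Ccnb2, Cdc20 and Cdk1, and Mcm5 carried no CHR match. The windows of Ccnb1, Cenpe, Birc5, Nusap1 and Melk held no CHR letters either.

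Among the cyclins, Cdk1 and the factors of mitotic transcription, Cdk1 differed most. Cdk1 (ENSMUSG00000019942, chr10:69335146-69352938), the kinase that starts mitosis, was at 105, 164 and 61.2 CPM in Itga8+ MSCs, 52.6, 26.04 and 52.9 CPM in Itga8- BLCs, 10.01, 11.95 and 9.56 CPM in Sca-1+ MSCs and 20.9, 16.3 and 20.5 CPM in CD51+CD140a+ MSCs. Every library of Itga8+ MSCs was above every library of the other 3 populations, and every Sca-1+ library was below all others. In the edgeR fit the log2 fold change of Cdk1 was 3.39 (SE 0.41, FDR = 0.000341) against Sca-1+ MSCs and 2.52 (SE 0.40, FDR = 0.000609) against CD51+CD140a+ MSCs. Against Itga8- BLCs it was 1.33 (SE 0.38, FDR = 0.108), which did not pass the test. A gene passed when the Benjamini-Hochberg FDR over all 18648 genes tested was under 0.1 and the fold change above 2.

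Ccnb1 (ENSMUSG00000041431), the cyclin B1 partner of CDK1, was at 98.8, 97.96 and 65.98 CPM in Itga8+ MSCs, 50.2, 29.8 and 27.4 CPM in Itga8- BLCs, 11.6, 10.8 and 11.95 CPM in Sca-1+ MSCs and 36.8, 19.9 and 31.3 CPM in CD51+CD140a+ MSCs. The Itga8+ MSCs again overlapped with none of the others. Its log2 fold change in Itga8+ MSCs was 1.29 (SE 0.33, FDR = 0.0665) against Itga8- BLCs, 2.93 (SE 0.35, FDR = 0.000308) against Sca-1+ MSCs and 1.58 (SE 0.33, FDR = 0.00411) against CD51+CD140a+ MSCs. The first of these calls was lost without Itga8+ MSC replicate 1 (1.20), Itga8- BLC replicate 2 (1.18) or replicate 3 (1.13), any 1 Sca-1+ MSC library or CD51+CD140a+ MSC replicate 3 (1.29 each). Of its exon sequence, 76.6% is unique at 50 bases, and reads may be shared with its pseudogene copies. Cyclin A2 (Ccna2) was at 84.8 to 117 CPM in Itga8+ MSCs and at 18.7 to 26.3 CPM in Sca-1+ MSCs, and cyclin B2 (Ccnb2) at 56.9 to 150.3 and 20.2 to 26.3 CPM. Foxm1, a transcription factor of the G2 genes, was at 21.3, 2.13 and 27.8 CPM in Itga8+ MSCs and at 10.1, 14.2 and 1.56 CPM in Itga8- BLCs, so that its lowest values lay in the libraries low in long transcripts. It passed the test in no comparison.

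Among the genes of chromosome structure and the centromere, Cenpf and Cenpe set Itga8+ MSCs apart from Itga8- BLCs most clearly. Cenpf, a kinetochore protein, was at 32.2, 23.5 and 24.3 CPM in Itga8+ MSCs, 9.36, 7.28 and 4.32 CPM in Itga8- BLCs, 3.93, 5.24 and 5.95 CPM in Sca-1+ MSCs and 10.49, 10.58 and 14.5 CPM in CD51+CD140a+ MSCs. The Itga8+ libraries overlapped with no other, and the ranges of Itga8- BLCs and Sca-1+ MSCs overlapped. The log2 fold change against Itga8- BLCs was 1.93 (SE 0.35, FDR = 0.0112), the largest of the members in that comparison. Cenpe, a kinetochore motor, was at 26.7 to 44.2 CPM in Itga8+ MSCs and 6.90 to 14.4 CPM in Itga8- BLCs, with a log2 fold change of 1.65 (FDR = 0.0323), which did not pass without Itga8+ MSC replicate 1 (1.42, FDR = 0.116) or Itga8- BLC replicate 3 (1.42, FDR = 0.123). The histone variant gene Cenpa was at 28.2 to 92.9 CPM in Itga8+ MSCs and 8.80 to 11.2 CPM in Sca-1+ MSCs. Top2a, the topoisomerase that untangles sister chromatids, was at 122, 61.3 and 144 CPM in Itga8+ MSCs and 41.4, 32.2 and 27.1 CPM in Sca-1+ MSCs, with a log2 fold change of 1.70 (SE 0.47, FDR = 0.0311), which did not pass without Sca-1+ MSC replicate 2 (1.67, FDR = 0.106) or replicate 3 (1.57, FDR = 0.117). Against CD51+CD140a+ MSCs (83.5, 51.5 and 49.97 CPM) the libraries overlapped and the log2 fold change of Top2a was 0.82 (FDR = 0.192).

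Mki67, which encodes the proliferation antigen Ki-67, followed another order. Mki67 (ENSMUSG00000031004, chr7:135689784-135716361) was at 58.6, 23.5 and 37.9 CPM in Itga8+ MSCs, 28.1, 20.9 and 7.13 CPM in Itga8- BLCs, 38.0, 42.3 and 35.1 CPM in Sca-1+ MSCs and 61.0, 29.2 and 51.2 CPM in CD51+CD140a+ MSCs. Its transcript is long (10061 bases), and its lowest values in both Alcam+ populations lay in the libraries low in long transcripts. The mean of Mki67 was highest in CD51+CD140a+ MSCs and lowest in Itga8- BLCs. Itga8+ MSCs overlapped with each of the others, and their log2 fold changes were 1.09 (SE 0.48, FDR = 0.384) against Itga8- BLCs, 0.06 (SE 0.48, FDR = 0.953) against Sca-1+ MSCs and -0.24 (SE 0.48, FDR = 0.729) against CD51+CD140a+ MSCs. The sign against Sca-1+ MSCs turned with 5 alternatives and that against CD51+CD140a+ MSCs with 2. Between Itga8- BLCs and CD51+CD140a+ MSCs, Mki67 was the only member that passed as lower in Itga8- BLCs, with a log2 fold change of -1.33 (SE 0.49, FDR = 0.0566). That call was lost without Itga8- BLC replicate 3 (-0.94) and without CD51+CD140a+ MSC replicate 1 (-1.10) or 3 (-1.27). Mki67 was at 38.5 ± 3.59 CPM (SD, n = 3) in Sca-1+ MSCs and 40.0 ± 17.7 CPM in Itga8+ MSCs, whereas Top2a was at 33.6 ± 7.26 and 109 ± 42.7 CPM. CPM is not scaled to transcript length, so these values compare each gene across populations and not the genes with each other.

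**Figure D2:**
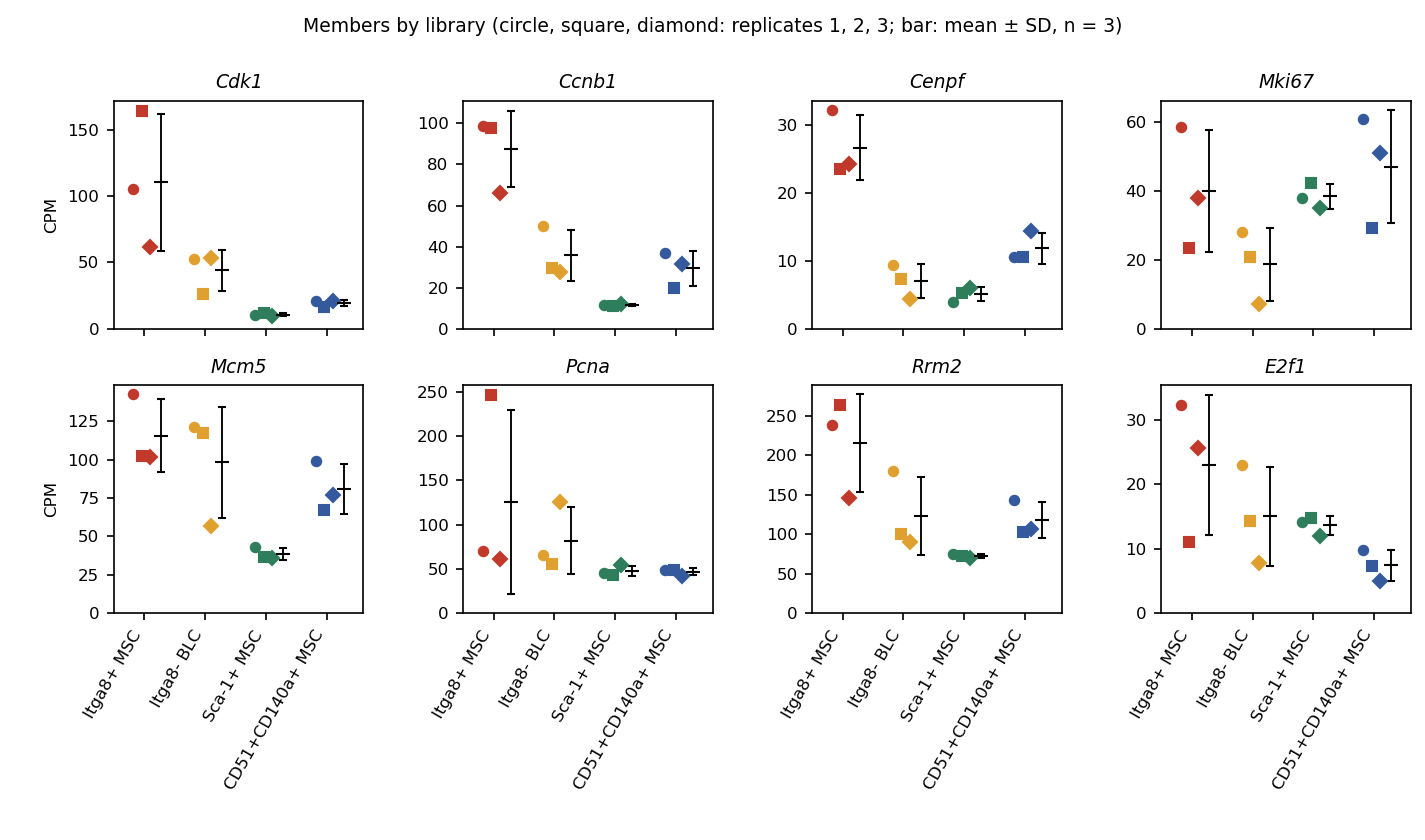
CPM of 8 members in the 12 libraries, by population; circles, squares and diamonds are replicates 1, 2 and 3, and the bar beside them is the mean with its SD (n = 3). Cdk1, Ccnb1 and Cenpf lie highest in Itga8+ MSCs without overlap, Mki67 does not, and the level of Pcna in Itga8+ MSCs rests on 1 library at 246 CPM.

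The mitotic kinases and the genes of the checkpoint and the APC/C all passed the test as higher in Itga8+ than in Sca-1+ MSCs (8 of 8, beside 12.9% of all genes). Most calls of members in that comparison were lost once the level of early granule genes was fitted as a covariate, as given below. Aurkb, the kinase of the chromosomal passenger complex, was at 69.0, 61.9 and 38.9 CPM in Itga8+ MSCs and 10.9, 6.82 and 8.06 CPM in Sca-1+ MSCs, with a log2 fold change of 2.72 (SE 0.40, FDR = 0.000989). Birc5 (survivin), a subunit of the same complex, was at 56.4, 121 and 27.6 CPM against 13.1, 10.8 and 14.3 CPM, a log2 fold change of 2.42 (SE 0.49, FDR = 0.00643). Ube2c, the ubiquitin-conjugating enzyme of the APC/C, was at 45.4, 118 and 32.2 CPM against 9.46, 8.04 and 8.58 CPM, a log2 fold change of 2.90 (SE 0.50, FDR = 0.00243). The values of Birc5 and Ube2c rested in part on Itga8+ MSC replicate 2, without which the log2 fold changes were 1.70 (FDR = 0.0123) and 2.14 (FDR = 0.00263). For each of these genes the populations did not overlap. Cdc20, the APC/C activator, was at 131, 103 and 83.2 CPM in Itga8+ MSCs, 64.04, 42.2 and 35.8 CPM in Itga8- BLCs, 19.3, 15.3 and 16.7 CPM in Sca-1+ MSCs and 31.4, 20.98 and 24.8 CPM in CD51+CD140a+ MSCs, and passed the test in Itga8+ MSCs against all 3 populations. The call of Cdc20 against Itga8- BLCs was lost without Itga8+ MSC replicate 1 (0.97), Itga8- BLC replicate 2 (1.09) or 3 (0.99), any 1 Sca-1+ MSC library (1.16 each) or CD51+CD140a+ MSC replicate 3 (1.16). The spindle checkpoint genes Bub1 and Bub1b passed against Sca-1+ MSCs and did not pass against CD51+CD140a+ MSCs. Part of the exons of Ube2c (22.8%) lies on the strand opposite Tnnc2, and the use of strand in counting is not given in the sources used here.

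Of the spindle motors and microtubule proteins, 8 of 9 passed the test in Itga8+ MSCs against Sca-1+ MSCs, 4 against CD51+CD140a+ MSCs and 1 against Itga8- BLCs, beside 12.9%, 21.2% and 1.66% of all genes. The latter was Prc1, which bundles the microtubules of the central spindle. It was at 157, 63.3 and 137 CPM in Itga8+ MSCs and 57.4, 42.4 and 29.4 CPM in Itga8- BLCs, without overlap, and its log2 fold change was 1.47 (SE 0.40, FDR = 0.0859). The call of Prc1 was lost without any 1 of the 3 Itga8- BLC or Sca-1+ MSC libraries, Itga8+ MSC replicate 1 or 3 or CD51+CD140a+ MSC replicate 3, with log2 fold changes of 1.22 to 1.75. Kif11, the motor that parts the spindle poles, did not pass against any population and was at 54.1, 17.1 and 66.3 CPM in Itga8+ MSCs and 18.2 to 22.6 CPM in Sca-1+ MSCs. Its value of 17.1 CPM lay in the library low in long transcripts. The 3 cytokinesis genes passed against both Sca-1+ and CD51+CD140a+ MSCs, but only 1 was higher than Sca-1+ MSCs without overlap (19.2% of all genes). Against Sca-1+ MSCs, Anln and Ect2 did not pass without any 1 Sca-1+ or CD51+CD140a+ MSC library, Itga8+ MSC replicate 1 or 3 or Itga8- BLC replicate 1. Ect2 also did not pass against CD51+CD140a+ MSCs without Itga8+ MSC replicate 1 or CD51+CD140a+ MSC replicate 2 or 3. Anln, which ties actin to the cleavage furrow, was at 72.9, 12.1 and 89.3 CPM in Itga8+ MSCs and 10.4, 11.84 and 9.47 CPM in CD51+CD140a+ MSCs, a log2 fold change of 2.46 (SE 0.67, FDR = 0.0170). Its second library lay just above the CD51+CD140a+ range. Racgap1, a subunit of centralspindlin, was at 100.1, 44.0 and 64.5 CPM against 18.99, 9.60 and 18.4 CPM, a log2 fold change of 2.15 (SE 0.40, FDR = 0.00184).

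The replication members differed less. In Itga8+ MSCs against Sca-1+ MSCs, 9 of 17 passed the test (12.9% of all genes), and the libraries of 14 of 17 were higher without overlap (19.2%). Mcm5, a subunit of the helicase, was at 143, 102 and 102 CPM in Itga8+ MSCs, 121, 117 and 56.8 CPM in Itga8- BLCs, 43.2, 36.5 and 35.7 CPM in Sca-1+ MSCs and 98.99, 67.5 and 76.9 CPM in CD51+CD140a+ MSCs. The Sca-1+ libraries lay below all others. The log2 fold change of Mcm5 against Sca-1+ MSCs was 1.59 (SE 0.33, FDR = 0.00696) in Itga8+ MSCs and 1.36 (SE 0.32, FDR = 0.0118) in Itga8- BLCs. Against CD51+CD140a+ MSCs the fold change of Itga8+ MSCs was 0.51 on the log2 scale (FDR = 0.236). Mcm2, another subunit, was at 148, 55.8 and 111 CPM in Itga8+ MSCs and 137, 79.3 and 96.2 CPM in CD51+CD140a+ MSCs, and against the 37.9 to 54.6 CPM of Sca-1+ MSCs its log2 fold change of 1.19 did not pass (FDR = 0.114). Mcm4 and Mcm6 did not pass in any comparison, and the mean of Mcm4 was highest in CD51+CD140a+ MSCs.

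Rrm2, the regulated subunit of ribonucleotide reductase, was at 239, 263 and 146 CPM in Itga8+ MSCs, 74.5, 72.5 and 69.5 CPM in Sca-1+ MSCs and 144, 102 and 107 CPM in CD51+CD140a+ MSCs. For Rrm2 in Itga8+ MSCs the log2 fold change was 1.58 (SE 0.33, FDR = 0.00801) against Sca-1+ MSCs and 0.88 (SE 0.33, FDR = 0.0615) against CD51+CD140a+ MSCs, the latter below the fold required. Rrm1, the large subunit, was at 184.5, 135 and 191 CPM in Itga8+ MSCs and 102 to 107 CPM in Sca-1+ MSCs, a log2 fold change of 0.70 (FDR = 0.153). Pcna was at 70.5, 246 and 61.5 CPM in Itga8+ MSCs, 65.2, 55.1 and 126 CPM in Itga8- BLCs, 45.1, 43.1 and 54.1 CPM in Sca-1+ MSCs and 49.2, 48.6 and 42.1 CPM in CD51+CD140a+ MSCs. Its highest values in both Alcam+ populations lay in the libraries low in long transcripts. The log2 fold changes of Pcna in Itga8+ MSCs were 1.41 (FDR = 0.0749) against Sca-1+ and 1.43 (FDR = 0.0474) against CD51+CD140a+ MSCs, and 0.62 (FDR = 0.727) against Itga8- BLCs. Without Itga8+ MSC replicate 2 the first of these were 0.46 (FDR = 0.388) and 0.53 (FDR = 0.259), so that both calls of Pcna rested on that library; they were also lost without any 1 library of the second population, at log2 fold changes of 1.34 to 1.51.

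Among the regulators of the G1 to S step, E2f1, the leading activator of replication genes, was at 32.3, 11.01 and 25.5 CPM in Itga8+ MSCs, 14.1, 14.8 and 12 CPM in Sca-1+ MSCs and 9.86, 7.28 and 5.06 CPM in CD51+CD140a+ MSCs. It passed the test in Itga8+ against CD51+CD140a+ MSCs (log2 fold change 1.63, SE 0.47, FDR = 0.0228), and not against Sca-1+ MSCs (0.75, FDR = 0.274). Unlike most members it was lowest in CD51+CD140a+ MSCs, where it did not overlap with Sca-1+ MSCs (0.88, FDR = 0.254). Cyclin E1 (Ccne1) was at 30.8, 46.1 and 23.7 CPM in Itga8+ MSCs and 13, 15.9 and 18.7 CPM in Sca-1+ MSCs, with a log2 fold change of 1.08 (FDR = 0.0390), which did not pass without Itga8+ MSC replicate 2 (0.76), or Sca-1+ MSC replicate 1 (0.95) or 2 (1.08). Cyclin E2 (Ccne2) overlapped between the populations (0.61, FDR = 0.281).

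Between the Itga8+ and Itga8- fractions of Alcam+ cells, 5 of 48 members passed as higher in Itga8+ MSCs, beside 1.66% of all genes tested. They were the mitotic genes Cdc20, Ccnb1, Prc1, Cenpe and Cenpf. The libraries of 13 members did not overlap and were higher in Itga8+ MSCs, beside 6.73% of all genes. The log2 fold change was above 0 for 47 of 48 members, with a median of 0.89 beside 0.08 over all genes, and the exception was Uhrf1, which keeps DNA methylation through replication. No member passed as lower by edgeR, DESeq2 or limma-trend (2.16% of all genes) or had an unadjusted p under 0.05 in that direction, and none was lower without overlap (7.44%). No replication member passed in edgeR, DESeq2 or limma-trend, and 2 had an unadjusted p under 0.05. The count of 5 rested on single libraries: it was 1 without Itga8+ MSC replicate 1 or Itga8- BLC replicate 3 and 11 without Itga8+ MSC replicate 2, and it was 0 when only these 2 populations were fitted. DESeq2 called 12.

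Against Sca-1+ MSCs, 37 of 48 members passed as higher in Itga8+ MSCs (28 of 31 mitotic and 9 of 17 replication), beside 12.9% of all genes, and the libraries of 39 did not overlap, beside 19.2%. Without each library in turn, 26 of the 37 passed every time. The median log2 fold change was 1.77, beside 0.16 over all genes. Mki67, Foxm1 and Kif11 were the mitotic members that did not pass. In Itga8+ MSCs, the lowest value of each lay in the library low in long transcripts. In the comparison with CD51+CD140a+ MSCs, 25 members passed as higher (21 mitotic and 4 replication), beside 21.2% of all genes, with a median of 1.05 beside 0.18, and the libraries of 26 were higher without overlap, beside 22.9%. Of the 25, 18 passed without each library in turn. The 4 replication members were Cdc45, Pcna, Tyms and E2f1, and 8 of the 9 licensing and helicase genes had log2 fold changes under 1. No member passed as lower in Itga8+ MSCs by edgeR, DESeq2 or limma-trend in either comparison, beside 8.89% and 14.3% of all genes, and none had an unadjusted p under 0.05 in that direction. None was lower without overlap, beside 18.4% and 21.5%. The early granule genes of granulocyte precursors were higher in Itga8+ MSCs in both comparisons (5 of 5 called, medians of 3.15 and 2.89), and with their summed level as a covariate 4 and 5 members passed.

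**Figure D3:**
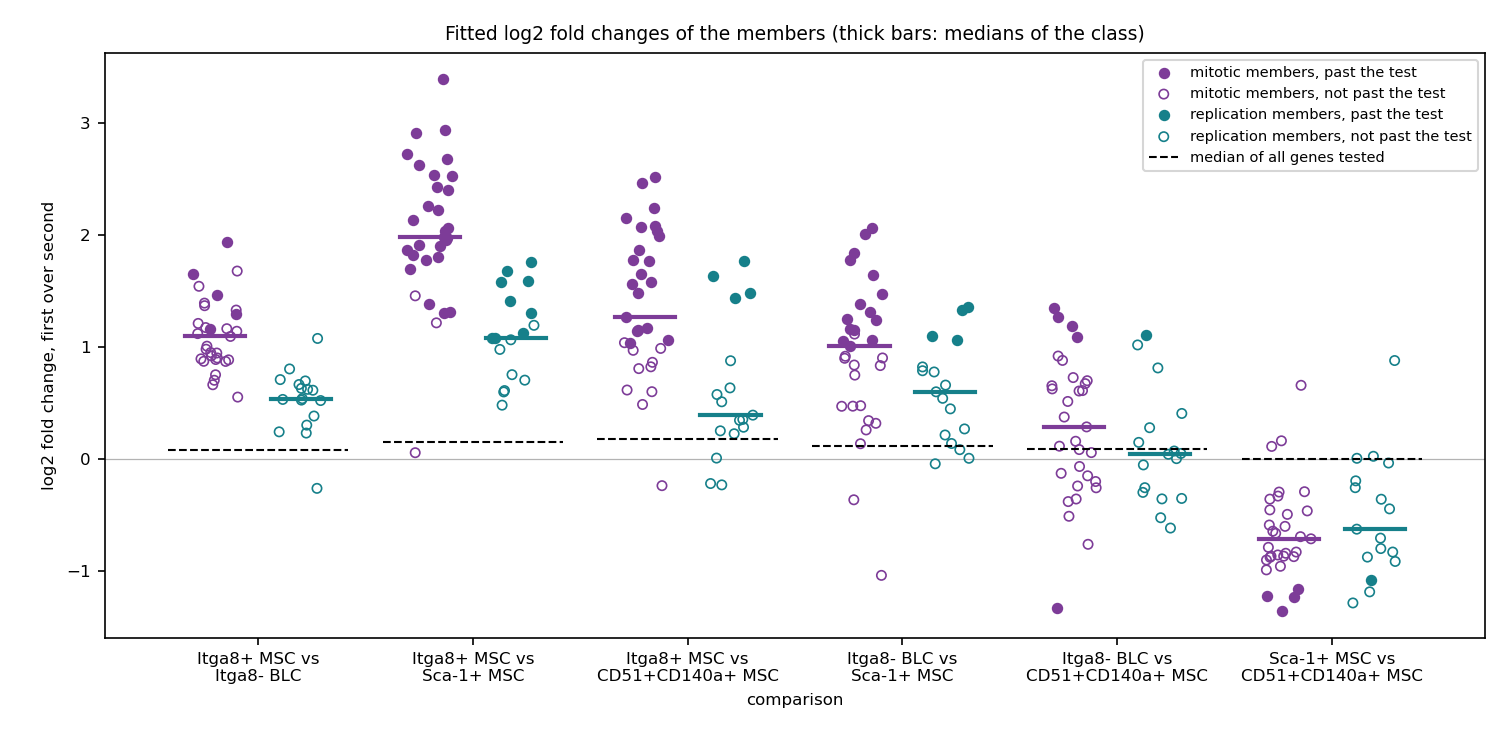
Fitted log2 fold change of each member (first over second population) in the 6 comparisons; filled points passed the test, thick bars are the medians of the 31 mitotic and 17 replication members, and dashed lines the median of all genes tested. The mitotic median is above the replication median in each comparison of Itga8+ MSCs, and both lie below 0 between Sca-1+ and CD51+CD140a+ MSCs.

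Itga8- BLCs stood between Itga8+ and Sca-1+ MSCs. Against Sca-1+ MSCs, 19 members passed as higher in Itga8- BLCs (15 mitotic and 4 replication), beside 14.5% of all genes, with a median of 0.84 beside 0.12. By size, the leading members were Cdk1 (log2 fold change 2.06, SE 0.39, FDR = 0.00348), Ube2c (2.01, SE 0.48, FDR = 0.0120), Aurkb (1.83, SE 0.39, FDR = 0.00640) and Cenpa (1.78, SE 0.44, FDR = 0.0135). Of the 19, 8 passed without each library in turn, the count being 8 without Itga8- BLC replicate 1, and it was 9 with library totals in place of TMM. Here 4 of 5 early granule genes passed as higher in Itga8- BLCs, and with their summed level as a covariate no member passed (4.24% of all genes). No member passed as lower in edgeR (11.9% of all genes) or DESeq2 or had an unadjusted p under 0.05 in edgeR in that direction, and limma-trend called 1. The libraries of 24 members were higher in Itga8- BLCs without overlap (23.8% of all genes) and those of 1 member lower (21.9%). Relative to CD51+CD140a+ MSCs, 5 members passed as higher (Cdk1, Cenpa, Ube2c, Racgap1 and Cdc45), beside 20.4% of all genes, and Mki67 passed as lower, beside 14.9%. The share of members called higher was below that of all genes, the libraries of 8 were higher and of 3 lower without overlap (26.3% and 23.5% of all genes), and the median of 0.10 was near that of all genes (0.09). Cdk1 had a log2 fold change of 1.19 (FDR = 0.0333), Ube2c of 1.35 (FDR = 0.0473), Racgap1 of 1.26 (FDR = 0.0280) and Cdc45, which activates the helicase, of 1.10 (FDR = 0.0312). Cdk1 and Cdc45 did not pass without Itga8- BLC replicate 1 (1.03 and 0.94), nor Ube2c without Itga8- BLC replicate 1 (1.13) or 3 (1.26) or CD51+CD140a+ MSC replicate 3 (1.36), nor Cenpa without Itga8- BLC replicate 1 (0.86) or 3 (1.06) or CD51+CD140a+ MSC replicate 3 (1.05). The count was 0 without CD51+CD140a+ MSC replicate 2, and the median of the members turned to -0.22 (all genes -0.24) on library totals.

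Between Sca-1+ and CD51+CD140a+ MSCs, 5 members passed as lower in Sca-1+ MSCs, beside 9.30% of all genes, a share near that of the members. They were Ccnb1 (log2 fold change -1.35, SE 0.33, FDR = 0.0133), Cenpf (-1.23, SE 0.35, FDR = 0.0287), Plk1 (-1.23, SE 0.37, FDR = 0.0416), Aurkb (-1.16, SE 0.38, FDR = 0.0568) and Mcm5 (-1.08, SE 0.32, FDR = 0.0370). The libraries of 28 members did not overlap and were lower in Sca-1+ MSCs, beside 23.2% of all genes, and the median log2 fold change was -0.70 beside -0.003. The differences were thus small but ran one way for 42 of 48 members. No member passed as higher in edgeR, DESeq2 or limma-trend, beside 11.2% of all genes, and none had an unadjusted p under 0.05 in that direction. The libraries of 2 members were higher without overlap, beside 22.7%. Without Sca-1+ MSC replicate 2 or 3, or CD51+CD140a+ MSC replicate 1, the count was 2, and Ccnb1 was the only one of the 5 that passed without each library in turn. Cenpf did not pass without Sca-1+ MSC replicate 1 (-1.08) or CD51+CD140a+ MSC replicate 3 (-1.06), nor Plk1 without Sca-1+ MSC replicate 2 (-1.21) or 3 (-1.10) or CD51+CD140a+ MSC replicate 1 (-1.14). The same 3 libraries decided the call of Mcm5 (-1.04, -1.03 and -0.91) and, with CD51+CD140a+ MSC replicate 3 (-1.18), that of Aurkb (-1.02, -1.12 and -0.90). The erythroid genes were lower in the same direction, with 6 of 8 without overlap, 1 called and a median of -0.81; their part in the result was not tested.

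Other mitotic genes were ordered like the members, and other replication genes less clearly. Of 35 further mitotic genes, among them the kinetochore genes Ndc80 and Nuf2 and the condensin genes Smc2 and Smc4, 26 passed as higher in Itga8+ MSCs against Sca-1+ MSCs, 18 against CD51+CD140a+ MSCs and 2 against Itga8- BLCs, beside 12.9%, 21.2% and 1.66% of all genes. Nek2, a kinase that parts the centrosomes, was at 66.7, 14.1 and 53.7 CPM in Itga8+ MSCs and 8.02, 5.90 and 4.55 CPM in Sca-1+ MSCs, a log2 fold change of 2.86 (SE 0.56, FDR = 0.00530). Of 33 further replication genes, 14 passed as higher in Itga8+ MSCs against Sca-1+ MSCs, 7 against CD51+CD140a+ MSCs (with 1 lower) and none against Itga8- BLCs in edgeR or limma-trend, where DESeq2 called 1 and 5 had an unadjusted p under 0.05. The 7 of 33 are the same share as the 21.2% of all genes. In Itga8- BLCs, 16 of the mitotic and 2 of the replication genes passed as higher against Sca-1+ MSCs, the former above and the latter below the 14.5% of all genes. The share of genes called was thus again larger among mitotic than among replication genes in these comparisons. With the summed level of the early granule genes as a covariate, 0 of these 68 genes passed as higher in Itga8+ MSCs against Sca-1+ or CD51+CD140a+ MSCs. For Itga8- BLCs against Sca-1+ MSCs, 1 passed with the covariate. The share of all genes called fell as well.

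The genes that open and brake the cycle followed the order of the members in part. Of 6 D cyclins and G1 kinases, 2 passed as higher in Itga8+ MSCs when compared with Sca-1+ MSCs and 2 when compared with CD51+CD140a+ MSCs, beside 12.9% and 21.2% of all genes. Their log2 fold changes were above 0 for 6 and 5 of them, with medians of 0.75 and 0.69 beside 0.16 and 0.18 over all genes. In Itga8- BLCs 3 passed as higher and 1 as lower relative to Sca-1+ MSCs, and 1 as higher relative to CD51+CD140a+ MSCs (14.5%, 11.9% and 20.4% of all genes). Ccnd1, the cyclin D1 gene, was at 24.5, 134 and 58.7 CPM in Itga8+ MSCs, 24.7, 67.2 and 42.9 CPM in Itga8- BLCs, 7.69, 7.63 and 7.08 CPM in Sca-1+ MSCs and 2.43, 1.46 and 1.39 CPM in CD51+CD140a+ MSCs. The fold change of Ccnd1 on the log2 scale between Sca-1+ and CD51+CD140a+ MSCs was 2.08 (SE 0.56, FDR = 0.0229), opposite in sign to that of most members. Of 9 CDK inhibitors and pocket proteins tested, 1 passed as higher in Itga8+ MSCs than in Itga8- BLCs, 3 than in Sca-1+ MSCs and 4 than in CD51+CD140a+ MSCs, where 2 passed as lower (1.66%, 12.9%, 21.2% and, for lower, 14.3% of all genes). Cdkn2c (p18) passed as higher in each of these comparisons. It was at 48.2, 50.2 and 43.7 CPM in Itga8+ MSCs, 21.02, 19.3 and 22.2 CPM in Itga8- BLCs, 9.46, 13.02 and 12.6 CPM in Sca-1+ MSCs and 9.70, 7.68 and 9.63 CPM in CD51+CD140a+ MSCs, and its log2 fold change against Itga8- BLCs was 1.18 (SE 0.25, FDR = 0.0292). Cdkn1c (p57), an inhibitor linked to quiescence, was at 154 to 204 CPM in Itga8+ MSCs and 25.5 to 29.7 CPM in Sca-1+ MSCs (log2 fold change 2.72, SE 0.26, FDR = 8.82e-05). Cdkn1a (p21) was at 319, 1125 and 241 CPM in Itga8+ MSCs and 714, 506 and 1678 CPM in Itga8- BLCs, with its highest value in each in the library low in long transcripts. Rbl1 (p107), a pocket protein that binds E2F, was at 35.1 to 38.4 CPM in CD51+CD140a+ MSCs and 6.18 to 19.4 CPM in the other libraries.

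Transcripts of granulocyte precursors were set beside the members in each library. Mpo encodes myeloperoxidase, a granule protein made in promyelocytes, and Ngp a granule protein of later neutrophil stages. Mpo was at 3919, 3052 and 1491 CPM in Itga8+ MSCs, 4153, 2360 and 1319 CPM in Itga8- BLCs, 907, 604 and 676 CPM in Sca-1+ MSCs and 764, 1409 and 870 CPM in CD51+CD140a+ MSCs. Ngp was at 1190, 6926 and 470 CPM, 1721, 1596 and 1549 CPM, 674, 166 and 504 CPM, and 146, 80.5 and 49.6 CPM in the same order. Both were thus present in all 12 libraries, with higher means in the Alcam+ populations, although the libraries overlapped in part. Between Itga8+ MSCs and Itga8- BLCs, the log2 fold change of Mpo was 0.11 (SE 0.45, FDR = 0.976) and that of Ngp 0.82 (SE 0.80, FDR = 0.806), and none of the 5 early granule genes (Mpo, Elane, Prtn3, Ctsg and Ms4a3) passed by edgeR, DESeq2 or limma-trend, nor had an unadjusted p under 0.05. With Sca-1+ or CD51+CD140a+ MSCs as the second population, 5 of 5 passed as higher in Itga8+ MSCs, with medians of 3.15 and 2.89. Their sum was 1956 to 5670 CPM in Itga8+ MSCs, 2457 to 5477 CPM in Itga8- BLCs, 719 to 1082 CPM in Sca-1+ MSCs and 883 to 1667 CPM in CD51+CD140a+ MSCs, and none of the 5 was at 0 in any library. The 6 late granule genes (Ngp, Ltf, Camp, Lcn2, S100a8 and S100a9) summed to 1063 to 14230, 3579 to 3980, 329.9 to 1317 and 132 to 342 CPM, and of them 0 passed as higher in Itga8+ MSCs than in Itga8- BLCs, 5 than in Sca-1+ MSCs and 6 than in CD51+CD140a+ MSCs.

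**Figure D4:**
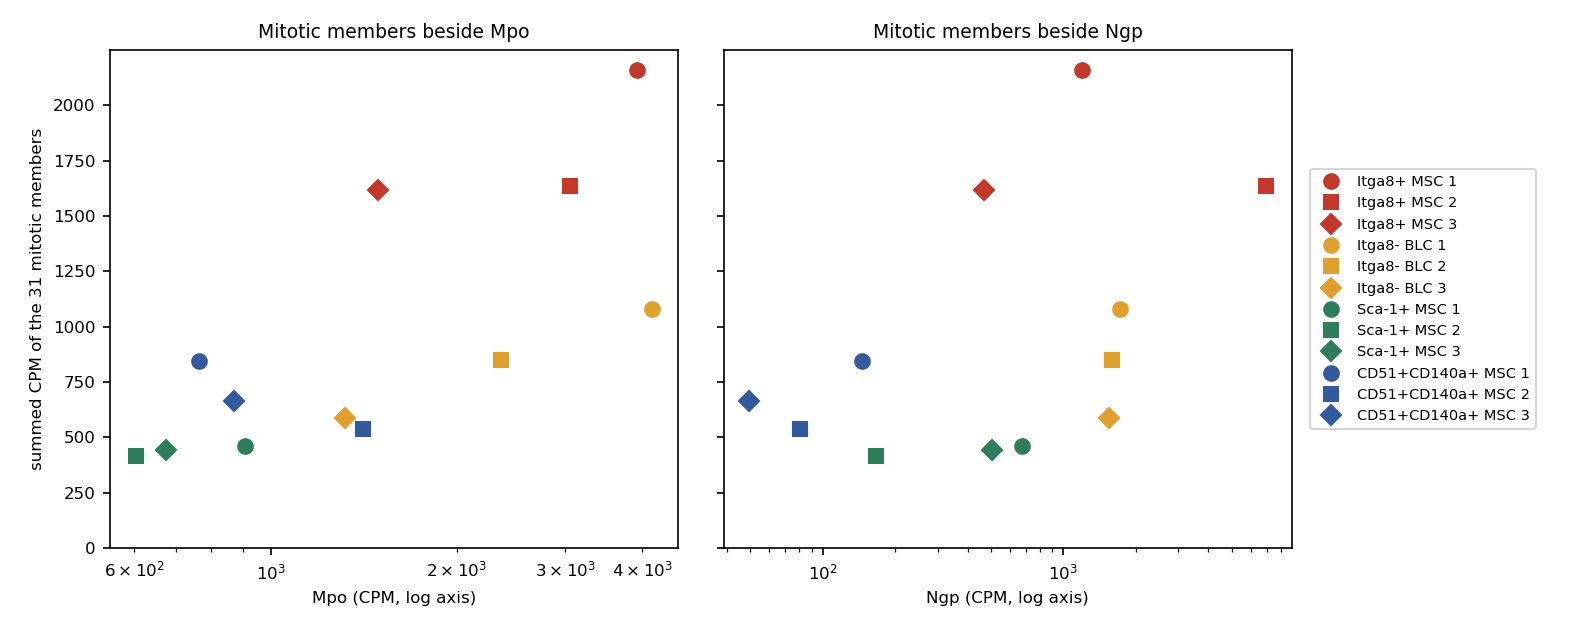
Summed CPM of the 31 mitotic members in each library (vertical axis) beside the CPM of Mpo (left) and Ngp (right), both on log axes, with colour for the population and shape for the replicate. At Mpo between 1319 and 1491 CPM, 1 Itga8+ MSC library stands at 1619 CPM of mitotic members and libraries of Itga8- BLCs and CD51+CD140a+ MSCs at 586 and 537 CPM; the first of these was low in long transcripts and the Itga8+ MSC library was not.

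The mitotic members did not keep a fixed ratio to Mpo. For each 100 CPM of Mpo there were 55.1, 53.6 and 109 CPM of mitotic members in Itga8+ MSCs, 26.03, 36.02 and 44.4 CPM in Itga8- BLCs, 51.1, 68.6 and 65.5 CPM in Sca-1+ MSCs and 110.4, 38.1 and 76.4 CPM in CD51+CD140a+ MSCs. Itga8+ MSCs lay above Itga8- BLCs without overlap, and overlapped with Sca-1+ and CD51+CD140a+ MSCs. For each 100 CPM of the 5 early granule genes, the mitotic members stood at 28.8 to 82.8 CPM in Itga8+ MSCs and 19.7 to 27.3 CPM in Itga8- BLCs, also without overlap. The ratios of replication members to Mpo and of mitotic members to Klf1 and Ngp overlapped. The replication members stood at 43.8, 52.5 and 90.8 CPM for each 100 CPM of Mpo in Itga8+ MSCs and 30.9, 52.3 and 57.4 CPM in Itga8- BLCs. For each CPM of Klf1 there were 76.8, 37.9 and 204.5 CPM of mitotic members against 29.3, 47.7 and 31.95 CPM. For each 100 CPM of Ngp there were 182, 23.6 and 344.7 CPM against 62.8, 53.3 and 37.8 CPM, with Itga8+ MSC replicate 2 the lowest of the 6. Nearly equal Mpo was found in 3 libraries of different populations, namely Itga8+ MSC replicate 3 (1491 CPM), CD51+CD140a+ MSC replicate 2 (1409 CPM) and Itga8- BLC replicate 3 (1319 CPM). Their mitotic members summed to 1619, 537 and 586 CPM, and their early granule genes to 1956, 1667 and 2457 CPM. The Itga8- BLC library among them was low in long transcripts and had the lowest mitotic sum of its population, and the Itga8+ MSC library deviated the opposite way along length. Itga8- BLC replicate 1 had the highest Mpo of all libraries and 1081 CPM of mitotic members, below each Itga8+ library. Within Itga8+ MSCs, Mpo ran from 1491 to 3919 CPM and the mitotic sum from 1619 to 2161 CPM. In Itga8+ MSCs, Itga8- BLCs and Sca-1+ MSCs, the order of the libraries by mitotic sum was their order by Mpo. In replicates 1, 2 and 3 of Itga8- BLCs, for example, the mitotic sum was 1081, 850 and 586 CPM. In CD51+CD140a+ MSCs (843, 537 and 664 CPM) the order was the reverse of that by Mpo. A link between them was not tested.

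With the log2 summed level of the early granule genes as a covariate, 4 of the 5 members stayed past the test between Itga8+ MSCs and Itga8- BLCs, with a median log2 fold change of 0.84 (1.48% and 0.001 over all genes). For Itga8+ against Sca-1+ MSCs the count fell from 37 to 4, with a median of 1.32, and against CD51+CD140a+ MSCs from 25 to 5, with a median of 0.75, a share near the 9.12% of all genes called with the covariate. None passed as higher in Itga8- BLCs against Sca-1+ or CD51+CD140a+ MSCs. The covariate differs between these populations, and the share of all genes called higher in Itga8+ against Sca-1+ MSCs fell with it from 12.9% to 1.83%. Between Sca-1+ and CD51+CD140a+ MSCs, 6 members passed as lower in Sca-1+ MSCs with the covariate, beside 9.43% of all genes, and they held the 5 called without it.

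Other blood lineages were measured in the same way. The 7 pan-leukocyte genes summed to 215 to 693 CPM in Itga8+ MSCs, 369 to 599 CPM in Itga8- BLCs, 94.8 to 207 CPM in Sca-1+ MSCs and 100.2 to 131 CPM in CD51+CD140a+ MSCs, and 0, 5 and 5 of them passed as higher in Itga8+ MSCs against the other populations in that order. The 8 erythroid genes summed to 137.5 to 1645 CPM, 221 to 446 CPM, 171 to 315 CPM and 439 to 469 CPM, and none of them was called between Itga8+ MSCs and any other population by edgeR or limma-trend or had an unadjusted p under 0.05, while DESeq2 called 1 against Sca-1+ MSCs. Ter119+ cells had been gated out. The erythroid factor Klf1 was at 28.2, 43.2 and 7.92 CPM in Itga8+ MSCs and 34.8 to 40.5 CPM in CD51+CD140a+ MSCs. The 6 B lineage genes summed to 57.2 CPM at most, the 4 megakaryocyte genes to 36.3 CPM, the 7 endothelial genes to 41.5 CPM and the osteoclast genes to 10.2 CPM. In Itga8+ MSCs against Sca-1+ MSCs, 3 B lineage and 2 megakaryocyte genes passed as higher (12.9% of all genes) and 1 of 3 osteoclast genes tested as lower (8.89%). With CD51+CD140a+ MSCs as the second population, 5 B lineage, 2 endothelial and 2 osteoclast genes passed as higher (21.2% of all genes), and with Itga8- BLCs 1 endothelial gene (1.66%). Which cells carried the mitotic transcripts, stromal or haematopoietic, was not tested, since the counts are of pooled cells.

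The spread of the members between libraries was wider in the Alcam+ populations. The median SD of log2 CPM over the members was 0.58 in Itga8+ MSCs and 0.56 in Itga8- BLCs, and 0.23 in Sca-1+ and 0.31 in CD51+CD140a+ MSCs, beside 0.69, 0.51, 0.20 and 0.23 over the 10459 genes of similar level. Part of it followed transcript length. Each library was compared with the other 2 of its population, and the deviation of the 48 members was ranked against the length of the principal transcript. The rank correlation across genes was -0.61 in Itga8+ MSC replicate 2 and -0.56 in Itga8- BLC replicate 3, beside -0.64 and -0.66 over 8828 genes, and was 0.66 in Itga8+ MSC replicate 3 and 0.66 in Itga8- BLC replicate 2. Genes are not independent replicates, and all of these share the library. In Itga8+ MSC replicate 2, the 24 shorter members lay 0.27 above and the 24 longer ones 0.95 below the other libraries in the median, on the log2 scale. In Sca-1+ and CD51+CD140a+ MSCs the correlations ran from -0.17 to 0.15.

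**Figure D5:**
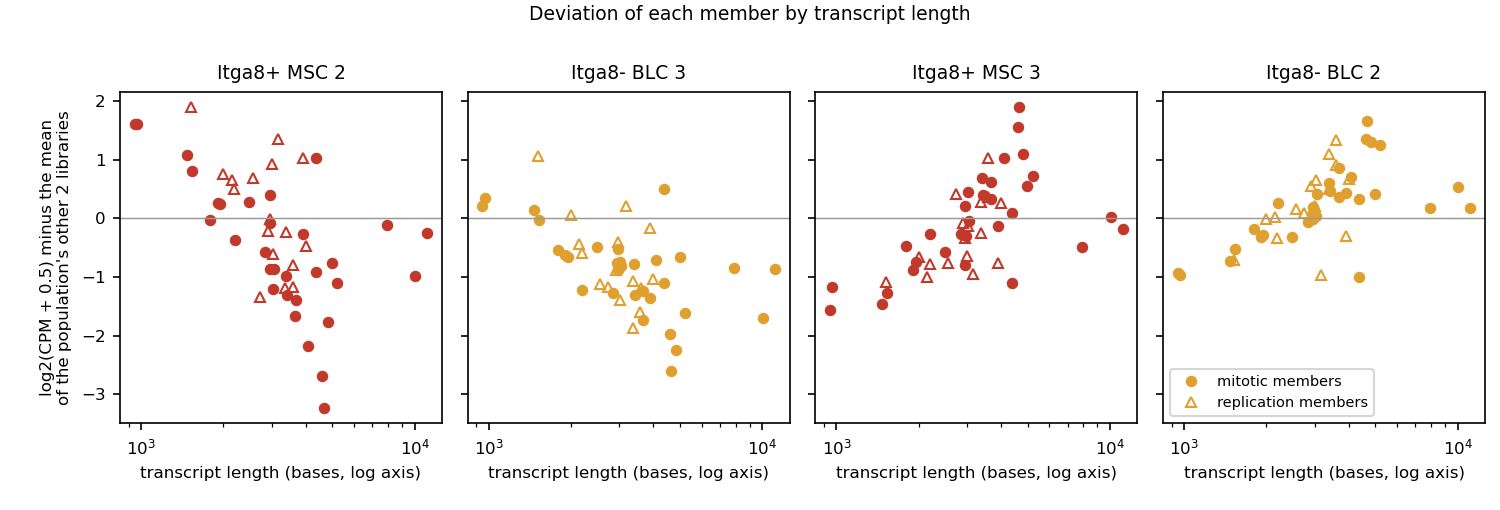
Deviation of each member from the other 2 libraries of its population (log2(CPM + 0.5), vertical axis) against the length of its principal transcript in bases (log axis) in 4 libraries; filled circles are mitotic and open triangles replication members. Longer members fall in Itga8+ MSC replicate 2 and Itga8- BLC replicate 3 and rise in Itga8+ MSC replicate 3 and Itga8- BLC replicate 2.

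With both of the libraries low in long transcripts left out, an alternative chosen after seeing the data, 9 members passed between Itga8+ MSCs and Itga8- BLCs, 3 of them among the 5 named above. Against Sca-1+ MSCs 39 passed (34 of them among the 37) and against CD51+CD140a+ MSCs 30 (23 among the 25). In that fit 1.84%, 11.6% and 17.7% of all genes passed as higher. Some members share sequence with other genes. The exons of Gins2 lie to 67.3% opposite Gse1, those of Kif20a to 29.3% opposite Cdc23 and those of Ccne2 to 17.4% opposite Ints8, and Mcm7 (76.7% unique at 50 bases) and Pcna (80.9%) have near-identical copies, so that reads of these genes may be partly those of others.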

How the data were processed

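RNA-seq libraries of 2000 sorted cells each (SMART-Seq v4, Nextera XT, NextSeq 500) were deposited by the authors as raw read counts per Ensembl gene, 1 table per library. The submitters' processing notes name FastQC 0.11.7, Trimmomatic 0.38, HISAT2 2.1.0, SAMtools 1.9, featureCounts 1.6.3 and mm10, whereas the study's methods name TopHat with Bowtie2 and iDEP; which made these counts, the annotation release and the strand setting are not given in the sources used here. Totals ranged from 17580677 to 31332475 counts per library; no read identifiers for molecules were used, so that counting error is a lower limit. Identifiers were mapped to symbols with GENCODE M21, which lacked 259 of 49585.

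The 18648 genes that reached 0.5 CPM in 1 library or more were fitted over all 12 libraries with edgeR 4.0.16 (TMM, quasi-likelihood, R 4.3.3), and a gene was called at an FDR under 0.1 (Benjamini-Hochberg over all genes) and a fold change above 2 in 6 comparisons. TPM divided counts by the union of exons. DESeq2 1.42.0, limma-trend (limma 3.58.1), library totals, other filters, 2-population fits, an early granule covariate (log2 of the summed CPM + 0.5), a replicate block and leaving out libraries were the alternatives. The fit was also run on simulated counts, and no result given here rests on that run. Promoter windows came from RefSeq, with no entry for Aurkb, Tpx2, Ccna2, Kif20a, Gins2, Foxm1, Ccne2 and Mcm4. Figures were drawn in Python 3.11.15 with matplotlib 3.10.9.

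Fold changes are given for 14 anchor members and for up to 4 called members per comparison and direction with the largest fold change, at least 1 CPM and no overlap of libraries; values per library may be given for any member. Nek2, Ccnd1, Cdkn2c, Cdkn1c, Cdkn1a, Rbl1 and Klf1 were named after their values were seen. The members, the lists and their roles were chosen with earlier results of these data known.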

Additional observations from a re-analysis of the deposited data

How the results depend on the processing

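Among the named fold changes, none that passed the test turned its direction under any alternative. The mean summed level of the members was highest in Itga8+ and lowest in Sca-1+ MSCs also in TPM (2838 and 1046, from 3363 and 1190 CPM), whereas Itga8- BLCs and CD51+CD140a+ MSCs changed places in TPM (1493 and 1755, from 1931 and 1828 CPM) and on library totals (1701 and 2042 CPM).

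For Itga8+ MSCs against Itga8- BLCs, the 5 members called became 2 at an FDR of 0.05, 12 by DESeq2 and 10 on library totals. The share of all genes called moved as well, from 1.66% to 1.07%, 3.20% and 2.65%. The 5 also became 0 with only these populations, 9 without both libraries low in long transcripts, and 1 to 11 without 1 library. The count was 2 without Itga8- BLC replicate 2, any 1 of the Sca-1+ MSC libraries or CD51+CD140a+ MSC replicate 3. Against Sca-1+ MSCs the 37 became 4 with the early granule covariate and 26 to 40 without 1 library. Relative to CD51+CD140a+ MSCs the 25 became 5 and 19 to 27. For Itga8- BLCs against Sca-1+ MSCs, the 19 became 11 at an FDR of 0.05, 9 on library totals, 0 with the covariate, 28 without both libraries low in long transcripts and 8 to 24 without 1 library (12 without Itga8- BLC replicate 2, and 11, 10 and 11 without Sca-1+ MSC replicates 1, 2 and 3); the 0 lower became 1 by limma-trend and 0 to 1 without 1 library. With CD51+CD140a+ MSCs the 5 higher became 0 on library totals, 0 with the covariate, 8 without both libraries and 0 to 6 without 1 (1 without Itga8- BLC replicate 1 and 3 without CD51+CD140a+ MSC replicate 3). The 1 lower became 0 at an FDR of 0.05, 2 on library totals, 0 with the covariate, 0 without both libraries and 0 to 2 without 1. Between Sca-1+ and CD51+CD140a+ MSCs the 5 lower became 10 on library totals and 2 to 8 without 1 library (8 without CD51+CD140a+ MSC replicate 2 and 3 without its replicate 3). The causes of these changes were not tested, beyond fewer samples or a stricter threshold.

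For the 68 other mitotic and replication genes in the same order, the 2 called became 1 at an FDR of 0.05, 11 by DESeq2, 6 on library totals, 1 without the filter, 0 with only these populations, 1 with the replicate block, 1 without both libraries and 0 to 5 without 1. The 40 became 0 with the covariate and 26 to 43 without 1, and the 25 became 0 and 18 to 31. The 18 became 11 on library totals, 1 with the covariate and 7 to 22 without 1, the 6 became 0, 0 and 1 to 9, and the 5 lower became 9 with only these populations, 8 without both libraries and 3 to 7 without 1.

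The log2 fold change of Mki67 between Itga8+ and Sca-1+ MSCs was -0.037 by limma-trend, -0.036 with the replicate block, -0.23 with the covariate, and 0.362 without both libraries low in long transcripts. It was -0.33 without Itga8+ MSC replicate 1, the lowest, and -0.005 without Sca-1+ MSC replicate 3. Against CD51+CD140a+ MSCs it ran from -0.62 to 0.06 without 1 library, above 0 without Itga8+ MSC replicate 2, and was 0.067 without both libraries low in long transcripts. That of Pcna against Itga8- BLCs ran from -0.29 without Itga8+ MSC replicate 2 to 1.045 without Itga8- BLC replicate 3, and that of Ccne2 against Sca-1+ MSCs was -0.43 with the covariate. Of the other values of named genes under an alternative, 1120 kept direction and call, 107 lost the call and 12 gained one. The early granule covariate gave 29 of the lost calls and turned signs, more than any other alternative.

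Library totals in place of TMM moved the median of all genes from 0.08 to 0.34 (Itga8+ MSCs against Itga8- BLCs), from 0.12 to -0.07 (Itga8- BLCs against Sca-1+ MSCs), from 0.09 to -0.24 (against CD51+CD140a+ MSCs) and from -0.003 to -0.15 (Sca-1+ against CD51+CD140a+ MSCs). Same-numbered libraries correlated at 0.20, -0.58 and -0.50 in their deviations between Itga8+ MSCs and Itga8- BLCs, so that the numbers do not pair the samples. With the replicate block, the members called were 4, 33, 23, 13, 5 higher and 1 lower, and 5 lower in the 6 comparisons. The lowest count of a member in any library was 26, so that no member lay at the limit of detection.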
